A study of Mus musculus with 8 samples.

Results

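Transfer RNA (tRNA) genes of the mouse were set against the binding positions of ZGLP1, a nuclear protein with GATA-like zinc fingers. The members were all genes of biotype tRNA on the autosomes and X in the RefSeq annotation of GRCm38, 408 of the 49554 genes in the table used here. Of these, 403 lay on the chromosome sequences and were analysed. The other 5 (Trnat-ugu, Trnap-ugg, Trnav-aac, Trnal-aag and Trnav-cac) were listed with positions that restart on another scaffold. Each gene was given the peak summits within 1 kb of its start or end. The rule used gene type only and no measured value, but it was set with earlier results of these data known.

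The summits came from chromatin immunoprecipitation and sequencing (ChIP-seq) with an anti-V5 antibody in mouse cells of a C57BL/6 x DBA2 background that overexpress V5-tagged Zglp1 under doxycycline (Dox). Primordial germ cell-like cells (PGCLCs), derived from embryonic stem cells (ESCs) and expanded on m220 feeder cells, received either Dox only or Dox together with retinoic acid (RA). Treatment ran from culture day 3, and cells were collected on day 7 or 8 (c7 and c8) and sorted as SC+ and mCherry+, SC being a reporter named in the labels. ESCs received Dox and RA for 24 h and were sorted as mCherry+. Each of the 5 ChIP groups (4 of PGCLCs and 1 of ESCs) had 1 library, and 3 input libraries came from c8 PGCLCs with Dox, c8 PGCLCs with Dox and RA, and ESCs. All cells carried the transgene, so none shows endogenous ZGLP1 alone. The deposited list joins 32927 summits, 32912 of them on the autosomes and X, and gives neither a library nor a height. Conditions therefore were not compared, the depth is unknown, and every value below is a distance or a count of genes.

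RNA polymerase III transcribes tRNA genes. Their promoter lies inside the gene, in an A box and a B box that the factor TFIIIC recognises, and TFIIIC then places TFIIIB and the polymerase upstream. Transcription ends at a run of T bases just after the gene. Most tRNA genes have near-identical copies, many of them in clusters, and a tRNA gene is named here by its amino acid letter and anticodon (n-TAagc16 reads alanine, anticodon AGC). The promoters are short and open, and tRNA genes are a frequent place of signal in ChIP-seq of many factors. Whether that bears on these summits was not tested.

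The RefSeq promoter windows of GRCm38 used here (250 bases before to 50 after a gene start) overlapped 10 tRNA genes, and no tRNA gene had an entry of its own. The 4 genes covered whole are shown because all of them had a summit within 1 kb, at different places in or beside the gene. Their windows belong to Gm38989 (n-TTagt9), Polg (n-TRtcg5), Gm32420 (n-TAagc16) and Gm46404 (n-TVcac9). A start listed for another gene thus lies near each, and summits were not assigned to either gene. Capitals mark the anticodon and the B box, and each sequence is written 5′ to 3′ on the gene's own strand.
n-TTagt9: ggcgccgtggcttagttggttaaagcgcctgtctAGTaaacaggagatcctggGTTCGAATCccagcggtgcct
n-TRtcg5: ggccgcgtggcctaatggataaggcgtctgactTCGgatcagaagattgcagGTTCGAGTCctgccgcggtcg
n-TAagc16: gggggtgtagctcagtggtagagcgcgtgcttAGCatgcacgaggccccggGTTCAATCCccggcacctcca
n-TVcac9: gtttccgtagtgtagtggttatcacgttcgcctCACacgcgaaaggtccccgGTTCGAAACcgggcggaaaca

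The threonine gene n-TTagt9 (chr7:35234770-35234843, minus strand) held a summit at base 39 of its 74 bases, between the anticodon and the B box. In the alanine gene n-TAagc16 (chr13:21222586-21222657, plus strand) the summit fell at base 47 of 72, also between the anticodon and the B box. The arginine gene n-TRtcg5 (chr7:79466419-79466491, plus strand) lies within Polg, which encodes the mitochondrial DNA polymerase, and its closest summit came 77 bases after its 3′ end. For the valine gene n-TVcac9 (chr13:23446142-23446214, minus strand) the closest summit came 237 bases after its 3′ end. Both n-TTagt9 and n-TAagc16 thus had the closest summit inside the gene, and the other 2 had it downstream. A further summit within 1 kb lay upstream of n-TTagt9 (700 bases), n-TRtcg5 (660) and n-TVcac9 (569).

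The histidine gene n-THgtg7 (chr3:96452495-96452566, plus strand) is shown as a contrast, since it had no summit within 1 kb. A promoter window covered the first 62 of its 72 bases, and capitals mark the B box only.
n-THgtg7: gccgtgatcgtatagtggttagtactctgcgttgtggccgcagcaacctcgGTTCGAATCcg
It holds the B box GTTCGAATC, the same letters as in n-TTagt9, and its closest summit lay 28399 bases away. The motif GTTCGANNC, searched on both strands, was found in 6 of the 10 windows that overlap a tRNA gene and in 0.843% of all 32851 windows. With the wider GTTCNANNC, which includes the first motif and the B box of n-TAagc16, the counts were 8 of 10 and 9.32%. The A box letters TGGCNNAGT were in 2 of these 10 windows and in 4.17% of all. A match is a description of letters and not a site. These 10 windows were picked for holding tRNA gene sequence, of which the B box is a part. Its higher share in them therefore says nothing about summits.

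GATA letters were searched because ZGLP1 carries GATA-like zinc fingers. AGATAA or TGATAA, on either strand, stood in 18.6% of all windows and in 6.49% of the 6168 windows that hold a summit. Of the 68 windows within 1 kb of a tRNA gene, 8 (11.8%) held it, and of the 20 among them with a summit, 1 did. Of the 10 windows that overlap a tRNA gene, 3 (30.0%) held it. Sequence under most tRNA summits was not used here.

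1 tRNA gene stood beside a gene of its own polymerase. The leucine gene n-TLaag4 (chr7:120917517-120917598, plus strand) lies 180 bases upstream of Polr3e, which encodes a subunit of RNA polymerase III. The 250 bases before the Polr3e start (chr7:120917528-120917777, plus strand) hold 71 of the 82 bases of the tRNA gene, in capitals.
Polr3e upstream: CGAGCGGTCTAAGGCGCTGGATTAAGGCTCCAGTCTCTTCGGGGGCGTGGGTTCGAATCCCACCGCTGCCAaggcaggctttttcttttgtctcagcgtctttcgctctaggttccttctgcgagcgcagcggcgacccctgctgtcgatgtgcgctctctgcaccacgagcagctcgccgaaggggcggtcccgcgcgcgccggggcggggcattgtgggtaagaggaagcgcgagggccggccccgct
The single summit lay at base 228 of this stretch, 157 bases after the tRNA gene and 23 bases before the Polr3e start. This summit is counted for both genes.

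Most tRNA genes had a summit nearby. Within 1 kb, 233 of 403 had at least 1 (57.8%, exact 95% binomial interval 52.8 to 62.7), against 30.3% of all 49209 placed genes and 53.8% of 21521 protein-coding genes. Of the other short RNA genes, 14.3% of miRNA, 7.52% of small nucleolar (snoRNA), 6.02% of small nuclear (snRNA) and 0.0% of the 62 rRNA genes had one. The tRNA share exceeded that of these 4 types pooled by 48.6 percentage points and that of all genes by 27.6. The difference from protein-coding genes was 3.97 percentage points, and their share lies inside the tRNA interval. Without chromosome 13, which holds the most tRNA genes, this difference was -3.48 points. Protein-coding genes are long, with a median of 17375 bases against 72 for tRNA genes, so that both of their ends count as separate places. Intervals cover counting error only, and they are too narrow because neighbouring genes share summits.

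The order of these types was similar at other distances. Within 200 bases, 157 tRNA genes (39.0%) had a summit, against 17.9% of all genes and 33.8% of protein-coding genes. Within 10 kb, 291 (72.2%) had one, against 46.2% and 67.7%. Where runs of tRNA genes with gaps under 1 kb were counted once, 51.5% of 301 loci had a summit.

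**Figure D1:**
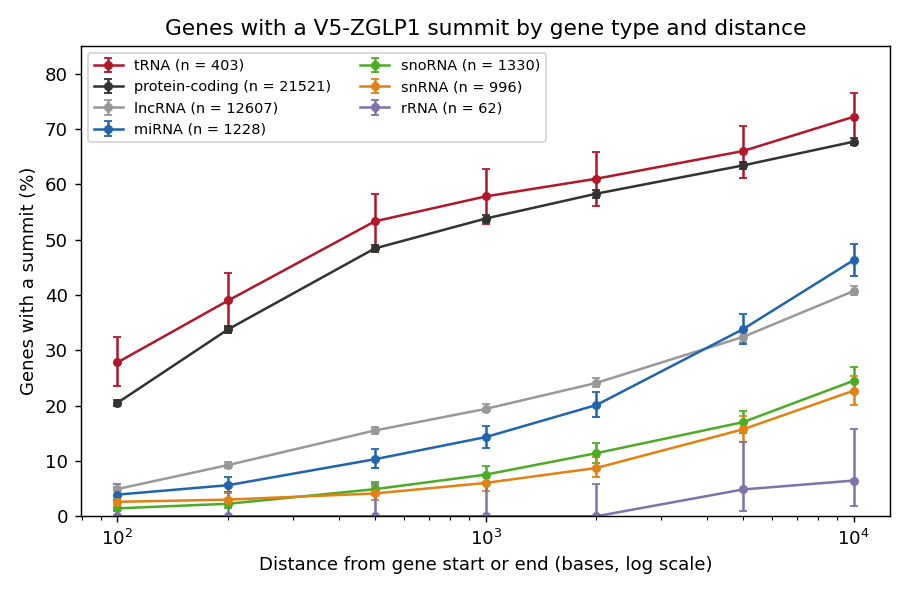
Percent of genes of each type with at least 1 summit (vertical axis) within a given distance of the gene start or end (horizontal axis, log scale); bars are exact 95% binomial intervals for counting error. The tRNA points lie at 39.0% within 200 bases and 72.2% within 10 kb, close to protein-coding genes and above the other short RNA types.

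Where tRNA genes had a summit within 1 kb, the closest mostly lay well inside that window. Among the 233 genes the closest summit lay 1 to 962 bases from the nearer gene end, with a median of 111 and quartiles of 32 and 261 bases. It lay within 100 bases for 112 genes, from there to 200 bases for 45, and over 500 bases away for 18. For 34 genes (14.6%) it fell inside the gene, for 104 below the lower coordinate and for 95 above the upper one. The list of genes gives no strand, so upstream and downstream were not separated beyond the sequences shown. Such nearness was also common at protein-coding genes, and less so at other short RNA genes. Of genes with a summit within 1 kb, 157 of 233 tRNA genes had one within 200 bases. So did 7265 of 11589 protein-coding genes, 8832 of 14892 of all genes and 129 of 335 other short RNA genes. Within 100 bases the counts were 112, 4404, 5290 and 93 in the same order.

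**Figure D2:**
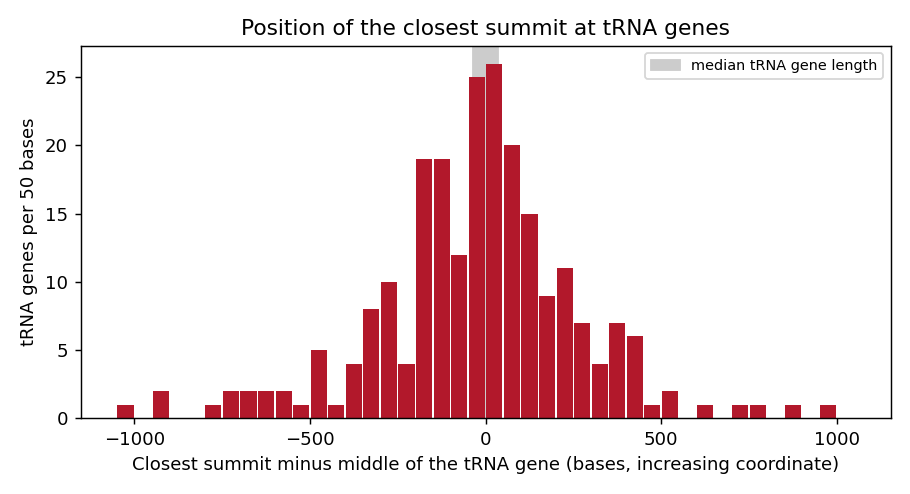
Number of tRNA genes (vertical axis, bins of 50 bases) by the position of the closest summit relative to the middle of the gene (horizontal axis, bases, by increasing coordinate), for the 233 genes with a summit within 1 kb; the grey band is the median gene length of 72 bases. The counts peak at the gene and fall on either side, and 34 summits lie inside a gene.

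These 233 genes drew on 219 distinct summits, 0.665% of those on the autosomes and X. A total of 145 genes had 1 summit, 77 had 2 and 11 had 3. The closest summit was shared with another tRNA gene for 91 genes and was their own for 142. The positions nearest to a gene end were those of n-TLtag3 (leucine, chr11:69124241-69124322) and n-TCgca54 (cysteine, chr11:97988923-97988994), at 1 base each. They were followed by n-TVcac8 (valine) at 2 bases, and by n-TRccg1 (arginine), n-TVaac3 (valine), n-TLtag2 (leucine) and n-TFgaa6 (phenylalanine) at 3 bases. For n-TNgtt6 (asparagine) and n-TTtgt2 (threonine) the distance was 4 bases, and for n-TGtcc7 (glycine) 5 bases. These 10 genes lie on 6 chromosomes and serve 8 amino acids. The threshold of 1 kb separated few genes: n-TYgta4 (892 bases), n-TEctc12 (948) and n-TSaga7 (962) were the last inside, and n-TSgct8 (1058), n-TGgcc4 (1120) and n-TFgaa2 (1185) the first outside.

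At the other extreme, 5 genes lay farthest from any summit. The lysine gene n-TKctt9 (chr3:3149493-3149565) was 2068839 bases from a summit, and the leucine gene n-TLcag1, within Naaladl2, was 1434816. For n-TKctt7, within Cdh19, the distance was 960034 bases, for n-TIaat2 it was 908608, and for n-TLcag2, within Sgcz, it was 792821. Naaladl2, Cdh19 and Sgcz are protein-coding, and exons and introns were not told apart here. In all, 112 tRNA genes had no summit within 10 kb, 45 of them on chromosome 6 and 17 on X.

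Protein-coding gene ends were near many tRNA genes, and the share with a summit was higher there. Of 49 tRNA genes within 1 kb of a protein-coding end, 43 had a summit (87.8%). Of 136 at 1 to 10 kb, 98 had one (72.1%), and of 218 farther than 10 kb, 92 had one (42.2%, interval 35.6 to 49.1). Without cysteine genes the tRNA shares were 87.2%, 72.7% and, over 10 kb, 55.1% (92 of 167). The other short RNA genes showed 54.5%, 13.9% and 2.35% in the same classes. Far from protein-coding ends, the tRNA share was thus 42.2% where miRNA genes had 4.57%, snoRNA genes 0.633% and snRNA genes 2.76%. Of the 219 summits, 52 (23.7%) lay within 1 kb of a protein-coding end and 78 (35.6%) over 10 kb from one.

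**Figure D3:**
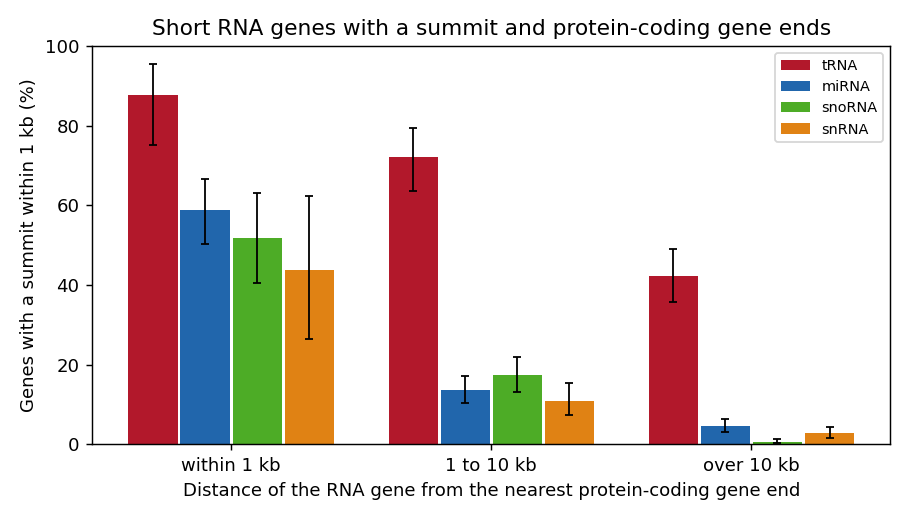
Percent of tRNA, miRNA, snoRNA and snRNA genes with a summit within 1 kb (vertical axis), by the distance of the gene from the nearest protein-coding gene end (horizontal axis); error bars are exact 95% binomial intervals. The tRNA bars, which include the cysteine genes, fall from 87.8% to 42.2%, and the others end between 0.633% and 4.57%.

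Most tRNA genes lie in clusters, defined here as runs with gaps under 10 kb. Of 293 genes with another tRNA gene within 10 kb, 181 (61.8%) had a summit, and of 110 solitary genes 52 (47.3%) did. Without cysteine genes, the values were 178 of 240 (74.2%) and 51 of 106 (48.1%). Clustered minus solitary was 14.5 points for all genes, 26.1 without cysteine genes and 6.42 without chromosome 13. Clustered genes can also count a neighbour's summit, and 91 of the 233 genes shared their closest summit with another tRNA gene. Among the 27 clusters of 4 or more genes, all genes had a summit in 11, none had one in 6, and some had one in 10.

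The 5 largest clusters differed widely. On chromosome 13, which holds 105 tRNA genes, 13 of 15 genes from n-TMcat2 to n-TSaga8 (chr13:21907111-21940995) had a summit, with 10 distinct summits and a median distance of 83 bases. In the cluster from n-TYgta3 to n-TLcag10 (chr13:23425646-23453514) 11 of 14 genes had one, at a median of 167 bases. On chromosome 1, 3 of the 15 genes from n-TEctc5 to n-TGgcc14 (chr1:171064164-171081946) had a summit, all from 1 summit, and the median distance was 7350 bases. Along this cluster a unit of glutamate, glycine, aspartate, leucine and glycine genes recurs in the same order. The other 2 were cysteine clusters of chromosome 6, with 0 of 22 genes (n-TCgca32 to n-TCgca45) and 0 of 10 genes (n-TCgca24 to n-TCgca19). A cluster of chromosome 13 (n-TAagc17 to n-TRtcg2) tied with the latter at 10 genes, of which 5 had a summit, at a median of 817 bases.

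Neighbouring clusters could stand at opposite ends. On chromosome 3, all 5 genes from n-TNgtt12 to n-TEctc13 (chr3:96497781-96501518), over 3.74 kb and for 5 amino acids, lay 5 to 137 bases from a summit. The distances were 9 bases for n-TNgtt12, 137 for n-TKctt16, 11 for n-THgtg8, 5 for n-TGtcc7 and 14 for n-TEctc13, and 6 distinct summits served the 5 genes. These genes are 23645 (n-TEctc13) to 27309 bases (n-TNgtt12) from the nearest protein-coding gene, Hjv. The 5 genes from n-TNgtt11 to n-THgtg1 (chr3:96451425-96464043), among them the n-THgtg7 shown above, were 27329 to 35042 bases from a summit. They lie 1795 (n-THgtg7) to 9611 bases (n-THgtg1) from the nearest protein-coding end, of BC107364. In this pair the cluster nearer to a protein-coding end was thus the one without a summit. Both clusters hold asparagine and histidine genes. These were singled out after their values were seen.

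Another dense group lay on chromosome 11, where 18 of 18 genes between n-TIaat5 and n-TKctt27 (chr11:69037003-69125248) had a summit. The aspartate gene n-TDgtc9 of this group had 3 summits, at 67, 652 and 673 bases. The alanine gene n-TAtgc5 (chr5:125409472-125409543) also had 3, at 28 bases from its start inside the gene and at 521 and 559 bases on either side. With n-THgtg8, n-TGtcc7 and n-TEctc13 of chromosome 3, these are the first 5, in chromosome order, of the 11 genes with 3 summits.

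**Figure D4:**
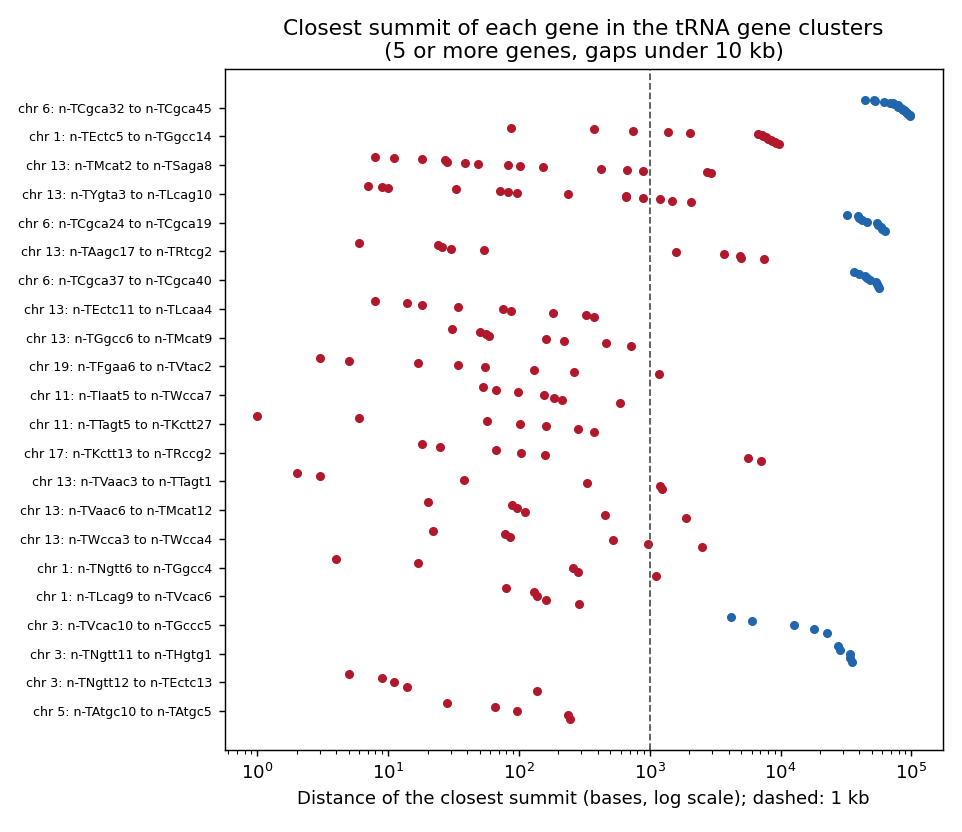
Distance of the closest summit (horizontal axis, bases, log scale) for each gene (point) in the clusters of 5 or more tRNA genes (rows, named by chromosome and first and last gene); the dashed line is 1 kb, and blue marks clusters with no gene inside it. The cysteine clusters of chromosome 6 and 2 clusters of chromosome 3 lie wholly to the right of the line.

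By amino acid, 19 of the 20 families had a summit at 45.5% of their genes or more. Proline genes had one at 14 of 16 (87.5%, and 50.0% within 200 bases), tryptophan at 7 of 8, phenylalanine at 6 of 7, methionine at 13 of 16 and tyrosine at 8 of 10. Serine (17 of 22), leucine (19 of 25), arginine (18 of 24), threonine (12 of 17), aspartate and isoleucine (11 of 16 each) followed. Lower shares were found for valine (14 of 22), glutamine (10 of 16), glutamate (11 of 20), alanine (18 of 33), asparagine (7 of 13), glycine (15 of 28), lysine (13 of 26) and histidine (5 of 11). With families of 7 to 33 genes, the exact intervals of these 19 overlapped. Names do not separate initiator from elongator methionine genes.

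Cysteine genes stood apart with 4 of 57 (7.02%, interval 1.95 to 17.0). The 49 cysteine genes on chromosome 6 lie between 47978997 and 48363603, and none had a summit (0 of 49). By the exact interval this would allow a share of up to 7.25% if the genes were independent, which neighbours in 1 array are not. Their closest summits lay 3129 to 97207 bases away, over 10 kb for 45 of them, and 48 of the 49 lie within the lncRNA gene Gm16630. Outside chromosome 6, 4 of 8 cysteine genes had one: n-TCgca54 at 1 base, n-TCgca55 at 14, n-TCgca52 at 565 and n-TCgca51 at 716. The other tRNA genes of chromosome 6 had a summit in 3 of 4 cases. The settings for reads that match several near-identical genes are not given in the sources used here, and their part in the empty cysteine array was not tested.

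**Figure D5:**
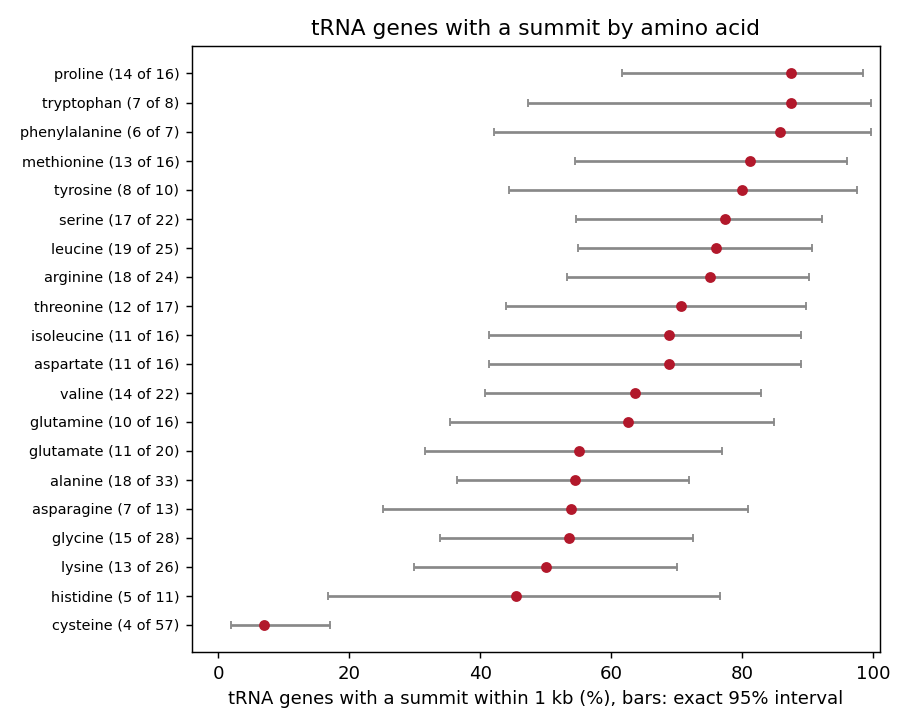
Percent of tRNA genes with a summit within 1 kb (horizontal axis) for each amino acid (vertical axis, with counts); bars are exact 95% binomial intervals for counting error. Cysteine, at 7.02%, is the only family whose interval lies wholly below 45.5%, the share of histidine.

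The X chromosome held 17 tRNA genes and none had a summit within 1 kb (0 of 17). This would allow up to 19.5% if the genes were independent, but 13 of them lie between 136195732 and 136590436. The gene closest to a summit was n-TQttg1 at 12534 bases. All genes of X had a summit in 10.4% of cases and its protein-coding genes in 22.7%, so the X share was low for other genes too. 12 of the 17 were alanine genes with anticodons CGC (5) and TGC (7), 112465 to 187922 bases from a summit. On the other chromosomes the TGC alanine genes had a summit in 4 of 4 cases, the CGC genes in 2 of 4 and the AGC genes in 12 of 13. Alanine genes outside X thus had 18 of 21 (85.7%).

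Outside chromosomes 6 and X, 230 of 333 tRNA genes (69.1%) had a summit. Among chromosomes with 10 or more tRNA genes, the counts were 83 of 105 on chromosome 13 (79.0%, where all genes had 29.3%), 39 of 47 on 11 (83.0%, all genes 42.7%), 11 of 12 on 14, 9 of 10 on 19, 9 of 11 on 10, 8 of 10 on 5, 8 of 10 on 7 and 8 of 12 on 17. Chromosomes 3 (19 of 40, 47.5%) and 1 (17 of 37, 45.9%) were lower. The 7 chromosomes with fewer genes had 19 of 39 in all.

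Other genes that RNA polymerase III transcribes were also near summits in part. Of 10 such genes, 6 had a summit within 1 kb (60.0%, interval 26.2 to 87.8), beside 30.3% of all genes. With the 5S rRNA genes given below, the count was 6 of 61 (9.84%). They were Rpph1, the RNA of RNase P, which trims the 5′ end of tRNA precursors, at 39 bases; Rn7s2 at 43 and Rn7s1 at 140, both 7SL RNAs of the signal recognition particle; Rmrp, the RNA of RNase MRP, at 128; Rn7sk, the 7SK RNA that holds back the elongation factor P-TEFb, at 397; and Bc1, a brain cytoplasmic RNA, at 508. The Y RNA genes Rny3 and Rny1 were at 3275 and 9721 bases, the vault RNA gene Vaultrc5 at 7895, and the U6 snRNA gene Rnu6 at 119101. No 5S rRNA gene had a summit within 1 kb (0 of 51, which would allow up to 6.98% if the genes were independent). Of these, 40 lie on chromosome 8, and the closest, n-R5s151, was 2817 bases away. 5S genes are transcribed by the same polymerase from an internal promoter that also needs TFIIIA. They were looked at after the values of the other types were seen.

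Protein-coding genes for the polymerase III machinery and for tRNA processing, modification and charging had summits almost throughout. The machinery list was not limited to factors that act at tRNA genes. Of 144 genes for the polymerase III machinery, tRNA processing, tRNA modification and aminoacyl-tRNA synthetases, 139 had a summit within 1 kb (96.5%), against 53.8% of protein-coding genes. The counts were 31 of 32, 21 of 22, 44 of 44 and 43 of 46 in turn. Median closest distances were 91.5, 126, 156 and 102 bases, beside 598 bases for protein-coding genes. These genes were not compared with other widely expressed genes.

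In the machinery list, Polr3c and Polr3e, both subunits of RNA polymerase III, had summits at 3 and 23 bases. In the processing list, Rpp14, of RNase P, had one at 30 bases and Rtcb, the tRNA splicing ligase, at 33. For modification the closest summits were at Elp5 (8), of the Elongator complex, Trmt112 (14), a partner of methyltransferases, and Dus1l (16), a dihydrouridine synthase. Among genes that charge tRNA they were at Qrsl1 (4), of the mitochondrial glutaminyl-tRNA amidotransferase, Iars (6), the isoleucine synthetase, and Gars (7), the glycine synthetase. The 5 genes without a summit within 1 kb, named after their values were seen, were Wars2 (1303 bases), Eprs (1687), Snapc3 (2015), Aars2 (2662) and Rpp40 (5632). All 144 had one within 10 kb.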

How the data were processed

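Per the submitters' processing notes, the reads were handled with MACS2 2.1.1.20160309, Bowtie 1.1.2, Trim Galore 0.4.1 with cutadapt 1.9.1, HOMER 4.9.1, SAMtools 1.3, bedtools and Picard 2.1.0 on mm10. Settings, the peak threshold, the libraries joined and the handling of reads with several matches are not given in the sources used here. The deposited values are summit positions in bases, without height or p-value. Whether they count from 0 or 1 is unknown. Genes came from a RefSeq table for GRCm38.p6, in which 345 genes of any type stood on other scaffolds and were left out. Distance is to the nearer gene start or end.

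Shares carry exact (Clopper-Pearson) 95% binomial intervals. No test was made, since 1 list has no replicates. Members and lists were chosen with earlier results of these data known. Genes named are the 10 closest, the 5 with most summits, the 5 largest clusters, 3 on each side of 1 kb, the 5 farthest, the non-tRNA polymerase III genes, and the 3 closest of each other list, of which some are not reported here. Others are said to be chosen later. No gene matched selenocysteine tRNA. Distance counts were tested on simulated data. Calculations ran in pandas 2.3.3, SciPy 1.17.1 and numpy 2.4.6 under Python 3.11.15, with plots by matplotlib 3.10.9.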

Additional observations from a re-analysis of the deposited data

Results flagged for a closer look

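Mitochondrial tRNA genes lie outside the set of nuclear genes described above, and 12 of the 22 had a summit within 1 kb, from 5 summits on the mitochondrial genome. The closest lay 184 bases from a tRNA gene. The 22 genes lie between positions 1 and 15422, a short span in which 5 summits can reach many genes by position alone. No share over other mitochondrial genes or over the sequence was calculated, so the count has no background beside it. The list has no input values, so these were not compared with the control libraries.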

How the results depend on the processing

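Of 113 alternative values, 31 were classed as moved, 1 changed sign and 81 were classed as the same. Some of these 81 still differed from the main value. Clustered minus solitary was 14.5 points in the main setting and 6.42 without chromosome 13. It was 23.3 points among genes over 1 kb from every protein-coding end. The changed sign was the tRNA share minus the protein-coding share, -3.48 points without chromosome 13. Without that chromosome the tRNA share was 50.3%, the share of loci 44.0%, and the difference from all genes 20.0 and from other short RNA genes 41.0 points. Within 200 bases the values were 39.0%, 40.9%, 21.0 and 35.4 in that order. The tRNA and locus shares were 66.0% and 61.1% within 5 kb and 72.2% and 66.8% within 10 kb, where the difference from other short RNA genes was 41.1 points. Counting loci gave 51.5%.

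Further settings were chosen after seeing the data. Without cysteine genes the tRNA share was 66.2%, loci 59.8%, and the differences 35.9 from all genes, 12.3 from protein-coding genes and 56.9 from other short RNA genes, and clustered minus solitary was 26.1 points. Without chromosomes 6 and X they were 69.1%, 63.3%, 37.3, 13.4 and 59.1. With the genes on other scaffolds the share was 57.1%. With only the lower coordinate of each gene, which need not be the transcription start, the difference from protein-coding genes was 28.4 points, since long genes lose an end and tRNA genes do not.

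Among planned settings, 90.0% of the 10 listed polymerase III genes (12 of 61, 19.7%, with the 5S genes) had a summit within 10 kb, beside 46.2% of all genes. Of the 144 protein-coding genes listed for the polymerase III machinery and tRNA 100.0% did, beside 67.7% of protein-coding genes. The proline share was 50.0% within 200 bases, and that of chromosome 13 57.1% within 200 bases and 94.3% within 5 kb.

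No paired analysis was possible because the list names no library. A stricter peak threshold and other motif windows were not run, as there is no score and windows have a fixed length. With depth unknown, a gene without a summit can lie below the authors' threshold.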
